A study of Mus musculus with 12 samples.

Results

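The mitochondrial carrier family, SLC25, was followed through H3K27ac ChIP-seq of regenerating mouse liver with and without Cox10. Its members were taken from the deposited table of acetylated regions by gene name: every region assigned to a gene whose symbol starts with Slc25a, leaving out Slc25a13 and Slc25a15, together with the regions assigned to Ucp2, Mtch1 and Mtch2, whose proteins belong to the same family under other names. This gave 124 of 36387 regions and 37 of 11240 gene names. A region counted as a promoter where the deposited annotation placed it within 1 kb of a gene start, and each gene was represented by its most strongly acetylated promoter region. By this measure 36 of the 37 genes had a promoter region, and Slc25a37 had none.

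All mice carried the floxed conditional Cox10 allele and were given an adeno-associated virus of serotype 8, which reaches hepatocytes efficiently, by retro-orbital injection. The virus carried GFP or Cre, and the labels call the resulting livers wild-type and Cox10-/-. After 4 weeks 70% of the liver was removed, and the regenerating remnant was taken on day 2. Each group had 3 H3K27ac libraries, and 6 input libraries were not analysed here. The labels give neither the promoter that drives Cre nor the sex and age of the mice, they do not say whether each library came from a separate animal, and p-values therefore measure the spread between these libraries, which may be technical. Cox10 makes an intermediate of heme A, the cofactor of cytochrome c oxidase. H3K27ac is the acetyl mark on lysine 27 of histone H3 that is found at active promoters and enhancers. The single region assigned to Cox10 is annotated to an intron, at chr11:63977336-63977787, and was listed at 14.6, 17.8 and 12.8 normalised reads in wild-type libraries and at 60.3, 46 and 65.9 in the Cox10-/- libraries, which does not check the deletion.

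SLC25 proteins are nuclear-encoded and mostly sit in the inner mitochondrial membrane, where each exchanges or carries a small set of solutes between the cytosol and the matrix. They supply the ATP synthase with ADP and phosphate, feed the citric acid cycle and the redox shuttles, and bring in the cofactors, nucleotides and iron that the matrix cannot make or does not keep. In liver they link the mitochondria to gluconeogenesis, ureagenesis, lipid synthesis and fatty acid oxidation. A few members lie in the outer membrane or in peroxisomes.

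The table gave each library's reads per region divided by a size factor of the authors, and the product returned whole reads. The wild-type libraries held 3897454 to 4187377 reads in these regions, and the Cox10-/- libraries 3282878 to 3385453. The size factors were 0.73 to 0.782 in wild-type and 1.18 to 1.32 in Cox10-/-, so signal on the deposited scale fell over most of the genome and the median log2 fold change was -1.04 over all regions and -0.82 over the strongest promoter of each gene. Spike-in chromatin was added to the samples, and whether the size factors rest on it is not stated in what was used here. Changes are therefore given on 2 scales: the deposited scale, and relative to the median promoter, for which the median over all promoters was subtracted within each library, a shift of 0.87 on the log2 scale. Fold changes are on log2(value + 1), and a change was called where the adjusted p of limma, taken over all regions on both scales, was under 0.05. The markers of hepatocytes moved with genotype: summed over all regions of 10 marker genes, the signal was 20538 to 21172 in wild-type and 6198 to 7035 in Cox10-/- libraries, and all 10 of their promoters were lower relative to the median promoter, with a median log2 fold change of -0.82. Of 8 macrophage markers 4 had a region, with summed signal of 3409 to 3563 against 2160.0 to 2485, while Adgre1, Clec4f, Csf1r and Marco had none; of the 3 with a promoter 1 was lower and 2 were higher relative to the median promoter, with a median of 0.77. Of 6 endothelial markers 2 had a region, with 521 to 588 against 312 to 388. Of 5 biliary markers 2 had a region, with 97.2 to 118 against 82.6 to 97.7, and the single promoter was higher relative to the median promoter, at 0.69. None of 6 stellate cell markers and none of 5 markers of T, B and red blood cells had a region. Their part in the results below was not tested, and in whole liver fewer cells of a type and less acetylation per cell cannot be told apart.

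At the promoters of the carrier family, H3K27ac was lower in Cox10-/- liver on the deposited scale for 34 of 36 genes, higher for Slc25a24 and not called for Slc25a36; centring the libraries on their median region instead turns the counts to 6 lower and 12 higher. Over all 9663 promoters, 93.8% were lower and 0.807% higher, so the share of lower promoters in the family lies near the background. The median log2 fold change of the 36 promoters was -0.88, a 1.85-fold lower signal, against -0.82 over all promoters. In 34 of the 36, all Cox10-/- libraries lay below all wild-type libraries, which held for 93% of all promoters. Relative to the median promoter, 14 carrier promoters were lower, 9 were higher and 13 were not called, against 24.4% lower and 27.5% higher among all promoters. With libraries centred on the median region, 6 of these 14 lower calls held and 8 did not (Slc25a17, Slc25a20, Slc25a22, Slc25a29, Slc25a34, Slc25a38, Slc25a39 and Slc25a42), while all 9 higher calls held. The family's median relative to the median promoter was -0.02, against 0.05 over all promoters. As a group the carriers lay close to the general fall. Their log2 fold changes spread from -2.89 to 0.36 on the deposited scale, and 27 of the 36 lay within 0.5 of the median promoter on the log2 scale. In the authors' deposited table, 105 of the 124 carrier regions had an adjusted p under 0.05 and were lower and 0 were higher, against 84.8% and 3.58% of all regions.

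**Figure D1:**
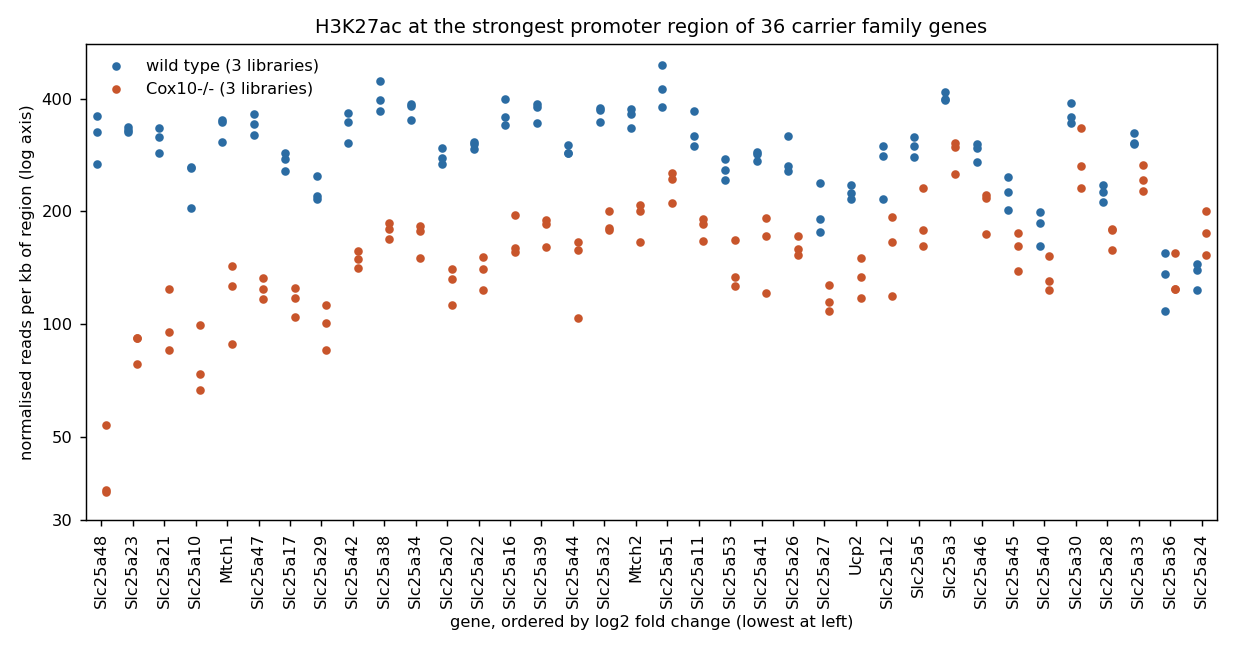
H3K27ac at the strongest promoter region of each of the 36 carrier genes, as normalised reads per kb of region on a log axis, with 1 point per library (3 wild-type and 3 Cox10-/-) and genes ordered by log2 fold change. The Cox10-/- points lie below the wild-type points for 34 genes, overlap them for Slc25a36 and lie above them for Slc25a24.

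Per kb of region, wild-type promoter signal ranged from 133 normalised reads at Slc25a36 to 432 at Slc25a51, with a median of 299 against 278 over all promoters. Slc25a51, the NAD carrier, had the highest level per kb at 491, 380.4 and 425 in wild-type libraries against 254, 245 and 210.4 in the Cox10-/- libraries. Slc25a3, the phosphate carrier, came next at 416, 400.0 and 397 per kb in wild-type. Slc25a38, the glycine carrier of heme synthesis, had 398, 369.6 and 446. These 3 overlap between libraries, so their order within wild-type liver is not resolved. In Cox10-/- liver the range was 41.8 per kb at Slc25a48 to 284 at Slc25a3, with a median of 159.

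The carriers of ADP, ATP and phosphate split in both directions around the median promoter. Of 5 with a promoter, Slc25a23 was lower and Slc25a3 and Slc25a24 were higher relative to the median promoter. Among all promoters 24.4% were lower and 27.5% higher on that scale. Slc25a23, a calcium-regulated carrier that exchanges ATP-Mg for phosphate, read 338, 342 and 348 in wild-type and 95.2, 95.2 and 81.1 in Cox10-/- libraries. The groups lie far apart, with a log2 fold change of -1.91 (SE 0.11, limma adjusted p = 4.5e-42), and -1.05 relative to the median promoter (limma adjusted p = 8.2e-18). Its close relative Slc25a24, which performs the same exchange, read 54.5, 61.6 and 63.9 in wild-type and 88.4, 77.5 and 67.4 in Cox10-/- libraries. Every Cox10-/- library lay above every wild-type library, with a log2 fold change of 0.36 (SE 0.16, limma adjusted p = 0.0255) on the deposited scale and 1.23 relative to the median promoter (limma adjusted p = 7.8e-12). On the deposited scale that call was lost with DESeq2 (adjusted p = 0.101) and without wild-type replicate 1 (limma adjusted p = 0.0963), Cox10-/- replicate 1 (0.149) or Cox10-/- replicate 2 (0.0587). The Slc25a24 region lies within 1 kb of the start of the non-coding Gm19391 as well. Slc25a3, which supplies phosphate to the ATP synthase and copper to cytochrome c oxidase, read 376, 362 and 359 in wild-type and 268, 274 and 227 in Cox10-/- libraries. It fell with a log2 fold change of -0.51 (SE 0.09, limma adjusted p = 1.1e-07), less than most promoters, and was 0.35 relative to the median promoter (limma adjusted p = 1.1e-05). Slc25a5, an ADP/ATP translocase, read 212, 186 and 199 in wild-type and 154, 108 and 119 in Cox10-/- libraries. The groups do not overlap, and the log2 fold change of -0.66 (SE 0.12, limma adjusted p = 5.3e-08) was 0.21 relative to the median promoter, which was not called (limma adjusted p = 0.0684). Slc25a41, a shorter ATP-Mg carrier, had a log2 fold change of -0.82 at a region that also lies within 1 kb of the start of Khsrp. No region of Slc25a4, Slc25a25 or Slc25a31 was analysed here.

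Among the uncoupling proteins and their relatives, Ucp2 and Slc25a27 fell by about as much as the median promoter, with log2 fold changes of -0.75 and -0.77. Slc25a30, an uncoupling protein relative first described in kidney, read 102, 98.6 and 111 in wild-type and 75.6, 95.2 and 65.9 in Cox10-/- libraries at its stronger promoter region. The Cox10-/- libraries were lower, with a log2 fold change of -0.41 (SE 0.14, limma adjusted p = 0.00479) and 0.46 relative to the median promoter (limma adjusted p = 0.00162), and the call on the deposited scale was lost without Cox10-/- replicate 3 (limma adjusted p = 0.0561).

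The carriers of citric acid cycle intermediates held some of the deepest promoter losses of the family. Of 3 with a promoter, Slc25a21 and Slc25a10 were lower relative to the median promoter and Slc25a11 was not called. Among all promoters 24.4% were lower on that scale. Slc25a21, which carries oxoadipate and oxoglutarate in the breakdown of lysine and tryptophan, read 271, 257 and 233 in wild-type and 101, 77.5 and 69.7 in Cox10-/- libraries. Its log2 fold change of -1.62 (SE 0.12, limma adjusted p = 5.1e-30) was -0.75 relative to the median promoter (limma adjusted p = 1.2e-09), and no library of the groups overlapped. Slc25a10, the dicarboxylate carrier that exchanges malate and succinate for phosphate, read 113, 145 and 146 in wild-type and 55.2, 37.1 and 40.9 in Cox10-/- libraries. This gave a log2 fold change of -1.59 (SE 0.15, limma adjusted p = 2.3e-20), -0.72 relative to the median promoter (limma adjusted p = 8.6e-06). Slc25a11, the oxoglutarate carrier of the malate-aspartate shuttle, read 177, 142 and 152 in wild-type and 90.9, 79.9 and 88.6 in Cox10-/- libraries. The groups do not overlap, and the log2 fold change of -0.85 (SE 0.13, limma adjusted p = 3.6e-10) lay 0.01 from the median promoter. Its region also lies within 1 kb of the start of Rnf167. The region measured for Slc25a10 lies 1061 bases from the gene's RefSeq start. The citrate carrier Slc25a1 was not analysed here.

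All 6 amino acid and acylcarnitine carriers with a promoter fell on the deposited scale, where 93.8% of all promoters were lower. Their log2 fold changes ran from -1.20 to -0.74. Relative to the median promoter 4 of them were lower and none was higher, against 24.4% and 27.5% of all promoters. These 4 were Slc25a29, a carrier of basic amino acids, at -0.33, Slc25a38 at -0.30, Slc25a20, the carnitine and acylcarnitine carrier of fatty acid oxidation, at -0.26, and Slc25a22, a glutamate carrier, at -0.26. None of the 4 was called with libraries centred on the median region, where they stood at -0.14, -0.11, -0.07 and -0.07. In normalised reads the Slc25a38 promoter held 150.3, 139.7 and 169 in wild-type and 68, 63.8 and 70.5 in Cox10-/- libraries. Its log2 fold change of -1.17 (SE 0.13, limma adjusted p = 2e-15) separated the groups without overlap. Slc25a12, the aspartate and glutamate carrier of the malate-aspartate shuttle in brain and muscle, had a log2 fold change of -0.74 and was not called relative to the median promoter. Slc25a44, which carries branched-chain amino acids, is counted here at -1.05, from a region within 1 kb of the start of Pmf1. Its promoter regions at the opposite end of the gene fell further and are described below.

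The carriers of nucleotides, cofactors and vitamins gave 7 falls among 8 promoters on the deposited scale, and 2 lower and 2 higher relative to the median promoter. These counts lie near the shares over all promoters, 93.8% lower on the deposited scale and 24.4% lower and 27.5% higher relative to the median promoter. The higher pair were the pyrimidine nucleotide carriers Slc25a33 and Slc25a36, which serve mitochondrial DNA and RNA synthesis. Slc25a33 read 209, 197 and 196 in wild-type and 157, 147 and 172 in Cox10-/- libraries. It fell, with a log2 fold change of -0.34 (SE 0.11, limma adjusted p = 0.00252) and was 0.53 relative to the median promoter (limma adjusted p = 9.3e-07). Slc25a36 read 53.2, 60.3 and 42.2 in wild-type and 60.3, 48.4 and 48.5 in Cox10-/- libraries. Its groups overlap, with a log2 fold change of 0.02 (SE 0.18) that was not called (limma adjusted p = 0.909), and it stood 0.89 relative to the median promoter (limma adjusted p = 4.9e-06). Of all promoters, 2.03% had a log2 fold change as high as that of Slc25a36. The lower pair were Slc25a17, the peroxisomal carrier of coenzyme A, FAD and NAD, at -0.37 and Slc25a42, a mitochondrial coenzyme A carrier, at -0.31 relative to the median promoter. Neither was called with libraries centred on the median region, at -0.18 (limma adjusted p = 0.122) and -0.12 (limma adjusted p = 0.278). Slc25a51 read 447, 347 and 387 in wild-type and 231, 223 and 192 in Cox10-/- libraries at its strongest region, with a log2 fold change of -0.86 (SE 0.09) that matched the median shift. That region also lies within 1 kb of the start of Gm46852. Another Slc25a51 region, at chr4:45406330-45407698, fell further, with a log2 fold change of -1.87 in the authors' deposited table. Slc25a16, Slc25a32, the folate and FAD carrier, and Slc25a26, the S-adenosylmethionine carrier, were not called relative to the median promoter, at -0.23, -0.10 and 0.09.

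Of 3 iron and glutathione carriers with a promoter, 1 was lower and 2 were higher relative to the median promoter. The shares over all promoters were 24.4% and 27.5%. Slc25a28, mitoferrin 2, which imports iron in non-erythroid cells, read 218, 208 and 196 in wild-type and 167, 165 and 146 in Cox10-/- libraries. The Cox10-/- libraries were lower, with a log2 fold change of -0.38 (SE 0.11, limma adjusted p = 0.00065) and 0.48 relative to the median promoter (limma adjusted p = 2.6e-06), at a region that also lies within 1 kb of the start of BC037704. A second promoter region of Slc25a28, at chr19:43674354-43674864, read 118, 101 and 84.4 in wild-type and 77.3, 98.5 and 78.8 in Cox10-/- libraries, with overlap between the groups and a log2 fold change of -0.25 that was not called. It was called lower without wild-type replicate 3 (-0.37, limma adjusted p = 0.0195) or Cox10-/- replicate 2 (-0.36, limma adjusted p = 0.0308). Slc25a39, a carrier of glutathione, read 661, 601 and 675 in wild-type and 331, 323 and 279.6 in Cox10-/- libraries. Its log2 fold change of -1.05 (SE 0.08, limma adjusted p = 4.9e-27) was -0.19 relative to the median promoter (limma adjusted p = 0.00409). That relative call was lost with libraries centred on the median region, at -0.0012 (limma adjusted p = 0.987). Across the 6 regions of Slc25a39 the log2 fold change ran from -1.34 to -0.75, the latter at chr11:102407699-102408477. Slc25a40, its close relative, read 69.2, 74 and 60.1 in wild-type and 45.9, 56.5 and 48.5 in Cox10-/- libraries, the groups not overlapping. This gave a log2 fold change of -0.42 (SE 0.17, limma adjusted p = 0.0154), 0.44 relative to the median promoter (limma adjusted p = 0.0127), and its region also lies within 1 kb of the start of Dbf4, a regulator of DNA replication. The fall of Slc25a40 on the deposited scale was not called with DESeq2 (adjusted p = 0.0718), without wild-type replicate 2 (limma adjusted p = 0.0717) or without Cox10-/- replicate 1 (0.059).

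Of the outer membrane members, Mtch1 and Mtch2, which help to insert proteins into that membrane, both fell on the deposited scale. Mtch1 read 108, 123 and 121 in wild-type and 50.1, 44.4 and 31.1 in Cox10-/- libraries. The Cox10-/- libraries were lower, with a log2 fold change of -1.49 (SE 0.16, limma adjusted p = 2.4e-17) and -0.63 relative to the median promoter (limma adjusted p = 0.00016). Mtch2 read 271, 248 and 279.9 in wild-type and 149, 155 and 123 in Cox10-/- libraries, a log2 fold change of -0.90 (SE 0.11) that was not called relative to the median promoter. Both genes had non-overlapping groups. Mtch1 had another promoter region, at chr17:29347269-29347662, with a smaller log2 fold change of -0.44 (limma adjusted p = 0.0105). Slc25a46, which takes part in mitochondrial fission and lipid transfer, had a log2 fold change of -0.51 and was 0.35 relative to the median promoter (limma adjusted p = 0.00134).

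The carriers with the least defined substrates included the deepest promoter loss of the family. Slc25a48, for which choline has been reported as a substrate, read 189, 141 and 171 in wild-type and 18.7, 28.2 and 18.9 in Cox10-/- libraries at chr13:56438922-56439447. The signal was 7.4-fold lower in Cox10-/- liver, a log2 fold change of -2.89 (SE 0.17, limma adjusted p = 7.5e-41), and -2.02 relative to the median promoter (limma adjusted p = 3.9e-20). Of all 9663 promoters, 0.548% fell as far. Slc25a47, an inner membrane carrier expressed mainly in hepatocytes, had a wide promoter region at chr12:108851191-108853461 that read 827, 726 and 778 in wild-type and 282, 301 and 265 in Cox10-/- libraries. Its groups were far apart, at a log2 fold change of -1.46 (SE 0.08, limma adjusted p = 7.3e-43) and -0.59 relative to the median promoter (limma adjusted p = 1.6e-15). Slc25a34 was also lower relative to the median promoter, at -0.26, Slc25a53 was not called at 0.02, and Slc25a45 was higher at its strongest region. With libraries centred on the median region Slc25a34 was not called, at -0.08 (limma adjusted p = 0.526). Its other promoter regions, at chr4:141622780-141623086 and chr4:141623983-141624404, had log2 fold changes of -0.88 and -0.30 in the authors' deposited table. The latter had an adjusted p of 0.18 there. Slc25a45 read 217, 242 and 265 in wild-type and 188, 149 and 173 in Cox10-/- libraries, a log2 fold change of -0.51 (SE 0.11, limma adjusted p = 4.3e-06) that was 0.36 relative to the median promoter (limma adjusted p = 0.0004). Its other promoter region, at chr19:5878598-5879448, fell further, with a log2 fold change of -1.32 in the authors' deposited table. The flanking regions at chr19:5880205-5880433 and chr19:5880858-5881115, 1 to 3 kb from a gene start, fell further still. They had log2 fold changes of -2.47 and -2.23. Slc25a2, Slc25a14, Slc25a18, Slc25a35, Slc25a43, Slc25a52 and Slc25a54 were not analysed here.

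**Figure D2:**
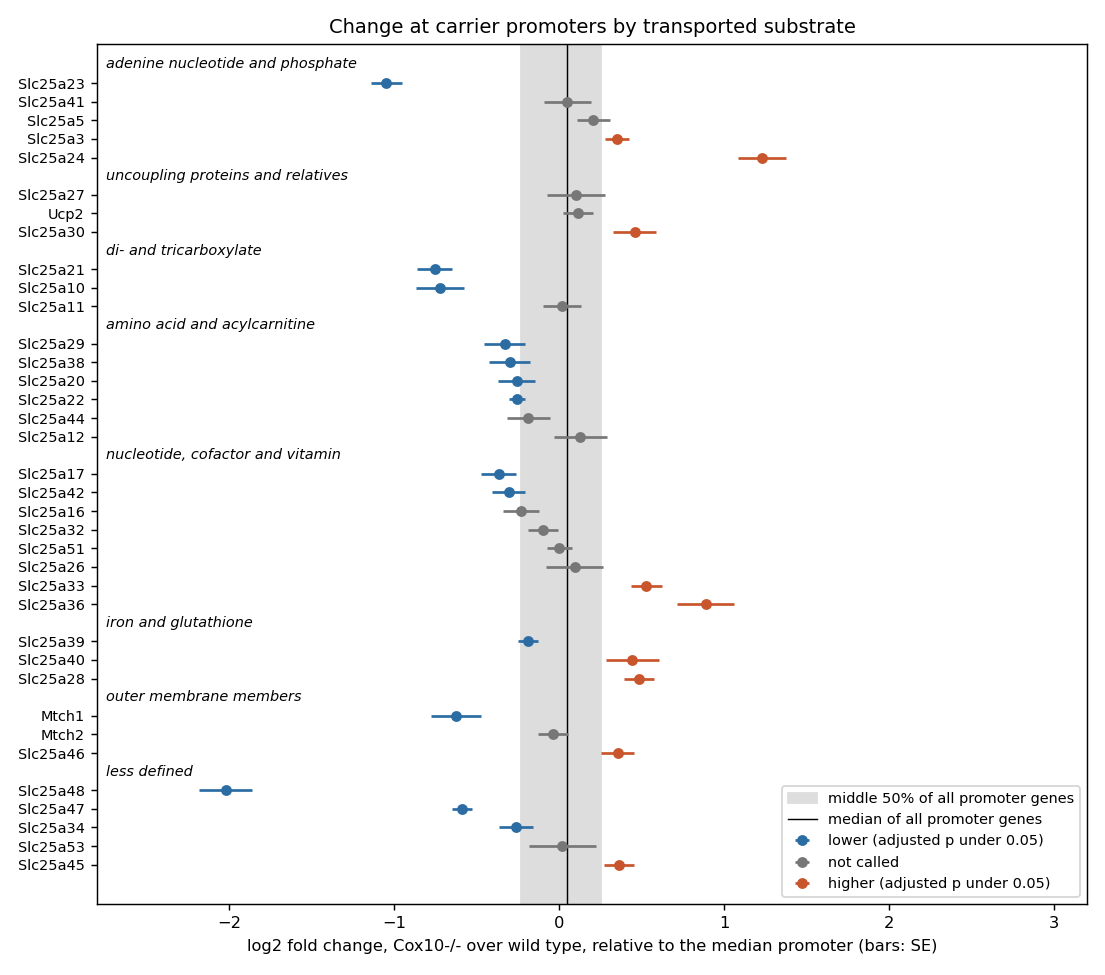
Log2 fold change of each carrier promoter relative to the median promoter, with bars of 1 SE from limma (3 libraries a group), arranged by transported substrate; the grey band holds the middle 50% of all promoters. Slc25a48 lies furthest to the left at -2.02 and Slc25a24 furthest to the right at 1.23. The 4 lower amino acid and acylcarnitine carriers lie between -0.33 and -0.26, and none of them is called with libraries centred on the median region.

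The sequence at the starts of 2 of the deepest losses and of the 2 pyrimidine nucleotide carriers is shown because these windows differ in CpG content; over the 28 windows counted below it ran from 1 at Slc25a34 to 47 at Slc25a40. The 4 windows, chosen after their values were seen, are RefSeq promoters of build GRCm38.p6, the build that mm10 corresponds to. Each runs 5′ to 3′ on the strand of the gene from 250 bases before to 50 bases after the start, with CpG dinucleotides in capitals. They lie at chr13:56438105-56438404 on the plus strand for Slc25a48, chr12:108850879-108851178 on the plus strand for Slc25a47, chr4:149774218-149774517 on the minus strand for Slc25a33 and chr9:97110992-97111291 on the minus strand for Slc25a36.
Slc25a48: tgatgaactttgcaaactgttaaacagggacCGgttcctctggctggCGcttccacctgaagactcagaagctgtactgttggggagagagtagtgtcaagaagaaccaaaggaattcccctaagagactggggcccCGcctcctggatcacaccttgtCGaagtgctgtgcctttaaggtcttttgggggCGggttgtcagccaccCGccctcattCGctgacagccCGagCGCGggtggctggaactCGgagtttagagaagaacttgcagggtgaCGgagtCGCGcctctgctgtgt
Slc25a47: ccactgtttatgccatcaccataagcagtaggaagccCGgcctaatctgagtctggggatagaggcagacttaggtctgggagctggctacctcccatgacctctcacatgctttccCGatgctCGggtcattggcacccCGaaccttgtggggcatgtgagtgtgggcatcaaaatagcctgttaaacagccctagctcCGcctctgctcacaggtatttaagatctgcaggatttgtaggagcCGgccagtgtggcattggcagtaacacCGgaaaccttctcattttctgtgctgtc
Slc25a33: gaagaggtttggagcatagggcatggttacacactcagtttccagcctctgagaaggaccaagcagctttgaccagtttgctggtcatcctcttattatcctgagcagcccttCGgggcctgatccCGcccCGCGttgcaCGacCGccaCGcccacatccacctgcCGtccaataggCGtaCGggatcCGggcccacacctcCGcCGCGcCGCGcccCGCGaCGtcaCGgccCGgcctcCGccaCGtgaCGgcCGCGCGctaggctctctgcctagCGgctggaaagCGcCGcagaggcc
Slc25a36: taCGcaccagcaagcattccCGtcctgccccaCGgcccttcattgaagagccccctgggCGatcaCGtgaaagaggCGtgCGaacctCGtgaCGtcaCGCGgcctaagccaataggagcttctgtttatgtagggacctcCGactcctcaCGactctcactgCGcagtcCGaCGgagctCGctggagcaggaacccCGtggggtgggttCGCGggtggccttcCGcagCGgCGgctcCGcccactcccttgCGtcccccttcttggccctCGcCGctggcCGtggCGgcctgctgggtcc

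The windows of Slc25a48 and Slc25a47 hold 14 and 7 CpG, and those of Slc25a33 and Slc25a36 hold 30 and 29. The strongest acetylated region of Slc25a48 begins 567 bases from this start, and those of the other 3 lie within 68 bases of theirs. A weaker region of Slc25a48, at chr13:56438112-56438372, covers the start itself and read 83.8, 74 and 78 in wild-type and 14.4, 16.1 and 9.09 in Cox10-/- libraries, a log2 fold change of -2.52 (SE 0.23, limma adjusted p = 1.9e-21). A RefSeq window was matched by symbol for 29 of the 36 promoter genes, and 28 of these started within 1 kb of the region measured. The median CpG count was 15 for the carriers lower relative to the median promoter, 21 for those not called and 27 for those higher. Over 6939 genes measured in the same way these medians were 18, 23 and 24. Across the 28 carrier genes, CpG count and log2 fold change gave Pearson's r of 0.35 and Spearman's rho of 0.44, and over the 6939 genes 0.21 and 0.17. These are correlations across genes of the same 6 libraries, which are not independent replicates. Slc25a39 and Slc25a40, with 45 and 47 CpG, fell on opposite sides of the median promoter, at -0.19 and 0.44. With libraries centred on the median region, Slc25a39 stood at -0.0012 and was not called. Short motifs were searched on both strands of the 28 windows. The GC box GGGCGG was present in 25 of 28 windows (89.3%) against 35.9% of all 27025 RefSeq windows of the same length, and the TATA box TATAAA in 0 of 28 against 14.2%. All windows together hold a median of 7 CpG against 18.5 in the carriers, and over the 6939 genes measured in the same way the shares were 67.7% and 6.72%. The E-box CACGTG was found in 7.14% of the carrier windows, those of Slc25a33 and Slc25a36, against 7.24% of all windows and 10.6% of the measured genes. The core TGACG of the cyclic AMP response element, which is also part of the whole site TGACGTCA, was found in 9 of 28 (32.1%) against 21% of all and 34.2% of the measured genes. Such a match is a description of the letters and not of a bound site.

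**Figure D3:**
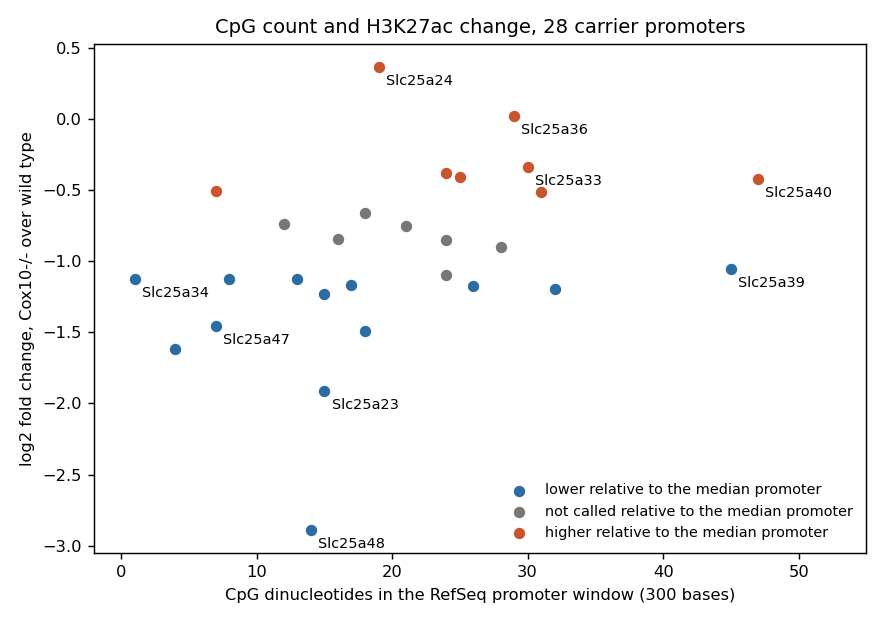
CpG dinucleotides in the RefSeq promoter window of 300 bases (x axis) against the log2 fold change of H3K27ac on the deposited scale (y axis), with 1 point for each of 28 carrier genes, coloured by the call relative to the median promoter. Slc25a48 and Slc25a47 lie at the lower left with 14 and 7 CpG, and Slc25a33 and Slc25a36 at the upper right with 30 and 29.

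Over all carrier regions, 107 of 124 were lower, 6 higher and 11 not called on the deposited scale, against 87.2% and 4.46% of all regions, and after centring the libraries on their median region 42 were lower and 39 higher, against 32.4% and 33.6%. The 6 higher calls on the deposited scale, 4 of them in Slc25a37 and the others in Slc25a24 and Slc25a30, became 0 with DESeq2, 1 among regions with a mean of at least 50, 3 without Cox10-/- replicate 1 and 1 without Cox10-/- replicate 2. The regions were unevenly spread over the family: 11 genes had 1 region, 12 genes had 4 or more, and Slc25a30 had 12. Away from promoters, 47 of 59 carrier regions were lower and 5 higher, against 83.2% and 6.96% of all such regions. Their median log2 fold change was -1.22 against -1.28. Relative to the median region 25 were lower and 19 higher, against 43.1% and 26.9%. Of the 19 higher regions 9 lay in Slc25a37 and 8 were distal regions of Slc25a30. Of the 25 lower regions 8 lay in intron 5 of Slc25a26. Slc25a30, Slc25a26 and Slc25a37 had the most regions.

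Inside Slc25a26, 8 regions in intron 5 of 9 lost most of their acetylation while the promoter changed like the median promoter. The cluster spans chr6:94548515-94559370 in mm10. Summed over its 8 regions, the signal was 1127, 1178 and 1187 in wild-type and 133, 144 and 127 in Cox10-/- libraries. The mean was 1164 ± 32.6 (SD, n = 3) in wild-type and 135 ± 8.71 in Cox10-/-, a signal 8.62-fold lower. All 8 regions were lower on both scales, with log2 fold changes from -3.99 to -2.56, and 5.29% of all regions away from promoters fell as far as the least changed of them. The widest, at chr6:94549807-94551022, read 358, 359 and 369 in wild-type and 34, 41.2 and 43.9 in Cox10-/- libraries. The most changed, at chr6:94558978-94559370, read 97.1, 98.6 and 102 in wild-type and 3.4, 8.07 and 5.3 in Cox10-/- libraries. In contrast, the promoter at chr6:94500369-94500607 read 75.8, 63 and 61.3 in wild-type and 36.5, 41.2 and 37.9 in Cox10-/- libraries, a log2 fold change of -0.77 (SE 0.18, limma adjusted p = 4e-05). No other gene of the RefSeq table used overlaps the cluster, and the next coding gene in it, Lrig1, lies 45.2 kb away. Within each library, the log2 ratio of the 9 regions away from the promoter, intron 9 included, to the promoter was 4.03, 4.33 and 4.38 in wild-type and 2.20, 2.16 and 2.06 in Cox10-/-. The ratio shifted by -2.11 with no overlap (two-sided exact permutation test, p = 0.1, adjusted p = 0.233 over 7 genes), and 0.1 is the smallest p that 3 libraries against 3 allow.

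Slc25a37, mitoferrin 1, which imports iron for heme synthesis in erythroid cells, kept most of its signal. Its 10 regions lie between chr14 positions 69262427 and 69280836, annotated to introns or an exon and none called a promoter, and the non-coding Gm27222 overlaps them. Their sum was 817, 868 and 824 in wild-type and 738, 736 and 718 in Cox10-/- libraries, 1.14-fold lower in Cox10-/-. Of the 10 regions, 3 were lower, 4 were higher and 3 were not called on the deposited scale, and 9 were higher relative to the median region. Without centring, 83.2% of all regions away from promoters were called down and 6.96% up. After centring on the median region, these shares became 43.1% down and 26.9% up. None of the 4 higher calls was made in the authors' deposited table, where their adjusted p ran from 0.0557 to 0.128, or with DESeq2. The strongest, at chr14:69272110-69273820, is annotated to exon 2 and read 186, 262 and 230.1 in wild-type and 235, 236 and 233 in Cox10-/- libraries. The groups overlap there, with a log2 fold change of 0.07 that was not called. Of all regions away from promoters, 10.4% had a log2 fold change at least as high. The region that rose most, at chr14:69278032-69278242 in intron 1, is weak and read 14.6, 11 and 8.95 in wild-type and 17.8, 20.2 and 25.8 in Cox10-/- libraries. Its log2 fold change of 0.84 (SE 0.36, limma adjusted p = 0.0232) was lost with DESeq2 (adjusted p = 0.0566) and without wild-type replicate 3 (limma adjusted p = 0.0662), Cox10-/- replicate 2 (0.0618) or Cox10-/- replicate 3 (0.135).

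Slc25a30 had 10 regions annotated as distal and assigned to it, between chr14 positions 75790841 and 75808621, where the non-coding Gm36271 lies. Their sum was 1035, 968 and 982 in wild-type and 784, 691 and 658 in Cox10-/- libraries, 1.40-fold lower in Cox10-/-. On the deposited scale 6 were lower, 1 higher and 3 not called, and relative to the median region 8 were higher and none lower. Among all regions away from promoters, 83.2% were lower and 6.96% higher, and relative to the median region 43.1% were lower and 26.9% higher. The region that rose, at chr14:75804283-75804699, read 43.9, 31.5 and 53.7 in wild-type and 59.5, 57.3 and 52.3 in Cox10-/- libraries. The groups overlap, since wild-type library 3 lies above Cox10-/- library 3. The log2 fold change of 0.41 (SE 0.19, limma adjusted p = 0.0317) was lost with DESeq2 (adjusted p = 0.152) and without wild-type replicate 2 (limma adjusted p = 0.305), Cox10-/- replicate 1 (0.0949) or Cox10-/- replicate 2 (0.078). The weaker promoter region, at chr14:75786556-75786903, read 87.8, 63 and 94.6 in wild-type and 81.6, 84.7 and 75.8 in Cox10-/- libraries, with overlapping groups and a log2 fold change of 0.00. At the far end of the cluster, chr14:75808115-75808621 fell with a log2 fold change of -1.22 (limma adjusted p = 2.7e-16).

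**Figure D4:**
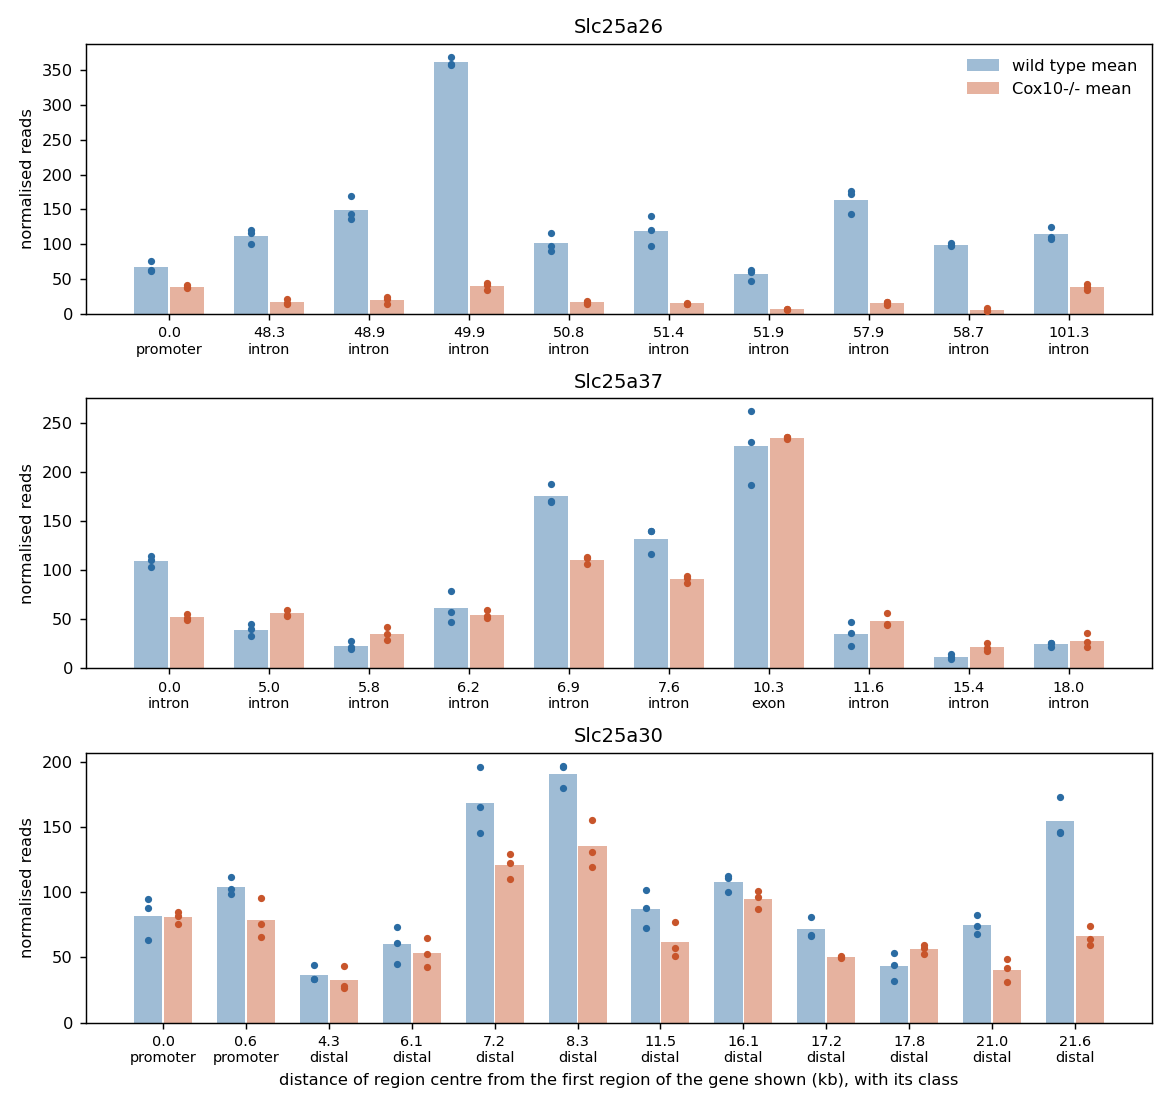
Normalised reads in every region of Slc25a26, Slc25a37 and Slc25a30, ordered along the chromosome with the distance from the first region in kb; bars are means, points are the 3 libraries of each group. The 8 intron 5 regions of Slc25a26, between its promoter and its last region, fall from a summed 1164 to 135, while the sum over Slc25a37 goes from 836 to 731.

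Against 87.2% of all regions lower on the deposited scale, Slc25a44 lost signal in all 7 of its regions. The sum was 1007, 1052 and 974 in wild-type and 369.7, 316 and 292 in Cox10-/- libraries, 3.10-fold lower in Cox10-/-. Log2 fold changes ran from -2.04 to -1.05. The least changed was the region used as its promoter, at chr3:88410456-88410914, which read 138, 131 and 132 in wild-type and 72.2, 75.9 and 47.7 in Cox10-/- libraries and lies within 1 kb of the start of Pmf1. The promoter regions at the opposite end of the gene, chr3:88424640-88425095 and chr3:88425460-88425756, fell further, with log2 fold changes of -1.77 and -1.50. Slc25a10 showed the opposite order, though not in every region. Its region at chr11:120493829-120494013 fell further than its promoter, at -1.94 against -1.58 in the authors' deposited table. Its most distant pair of regions, annotated as distal, changed less than its promoter: the one at chr11:120509627-120510040 read 70.5, 89 and 81.8 in wild-type and 79.9, 70.2 and 50 in Cox10-/- libraries, with overlapping groups and a log2 fold change of -0.29 that was not called. It was called lower without wild-type replicate 1 (-0.38, limma adjusted p = 0.0321) or Cox10-/- replicate 1 (-0.43, limma adjusted p = 0.0183). Over 7 genes with several regions away from the promoter, the ratio of these regions to the promoter separated the groups without overlap for Slc25a26, for Slc25a44 at -0.74, where the promoter is the region beside Pmf1, and for Slc25a10 at 0.63 (two-sided exact permutation test, p = 0.1 for each, adjusted p = 0.233). It overlapped for Slc25a30, Slc25a39, Slc25a42 and Slc25a51.

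Close relatives within the family were compared by the log2 ratio of their promoters within each library, in which the size factors cancel, apart from the 1 added before taking logs. Of 15 pairs listed 8 had both promoters, and 4 ratios separated the groups without overlap. Slc25a45 over Slc25a47 was -1.93, -1.58 and -1.55 in wild-type and -0.58, -1.01 and -0.61 in Cox10-/-, a shift of 0.95 towards Slc25a45. This ratio uses the strongest promoter region of each gene, and the weaker promoter region of Slc25a45 fell further, as given above. Slc25a10 over Slc25a11 was -0.64, 0.03 and -0.06 in wild-type and -0.71, -1.09 and -1.10 in Cox10-/-, a shift of -0.74. Wild-type library 1 and Cox10-/- library 1 lie close together in that pair, and the shift became -0.32 with promoters taken within 3 kb. Slc25a39 over Slc25a40 was 3.24, 3.01 and 3.47 in wild-type and 2.82, 2.49 and 2.50 in Cox10-/-, a shift of -0.63. Mtch1 over Mtch2 was -1.32, -1.002 and -1.20 in wild-type and -1.55, -1.78 and -1.96 in Cox10-/-, a shift of -0.59. Each of the 4 had p = 0.1 in the two-sided exact permutation test, the smallest that 3 libraries a group allow, and 0.2 after adjustment over the 8 pairs. These separations therefore do not pass a threshold of 0.05. The ratios of Slc25a12 to Slc25a22, Slc25a33 to Slc25a36, Slc25a16 to Slc25a42 and Slc25a32 to Slc25a17 overlapped between groups, with shifts of 0.39, -0.36, 0.08 and 0.27.

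**Figure D5:**
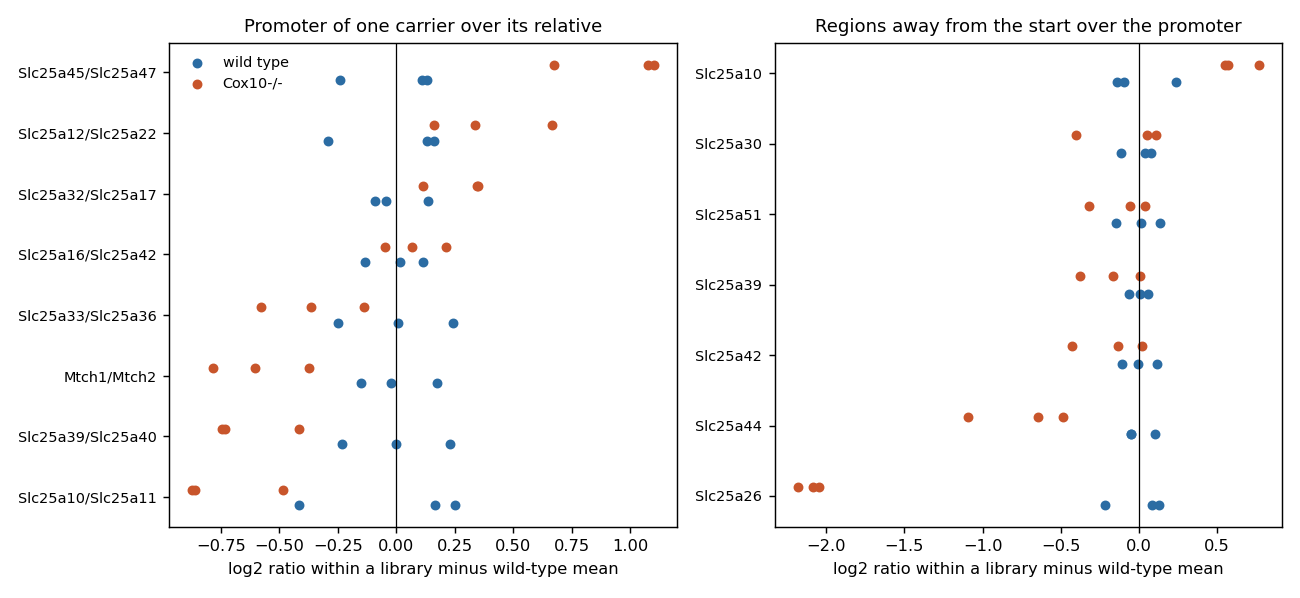
Log2 ratios within each library, minus the wild-type mean, of one carrier promoter over its relative for 8 pairs (left) and of the regions away from the start over the promoter for 7 genes (right), with 1 point per library and 3 libraries a group. The groups are apart for Slc25a45/Slc25a47, Mtch1/Mtch2, Slc25a39/Slc25a40 and Slc25a10/Slc25a11 on the left and for Slc25a10, Slc25a44 and Slc25a26 on the right, where Slc25a26 is shifted by -2.11.

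Genes that work with the carriers gave the following counts at their promoters, to be read against the 93.8% lower and 0.807% higher of all promoters on the deposited scale and the 24.4% lower and 27.5% higher relative to the median promoter; the shares lower on the deposited scale ran from 80% to 100% of a list. Carriers are inserted into the inner membrane by the TIM22 machinery after entry through TOM, and of 15 such import genes with a promoter 12 were lower and none higher on the deposited scale, with a median log2 fold change of -0.78. Relative to the median promoter 1 was lower, Timm29 at -0.31, and 6 were higher, among them Tomm5 at 0.76 and the chaperone subunit Timm10 at 0.39. Timm29 was not called with libraries centred on the median region, at -0.12 (limma adjusted p = 0.287). Inner membrane transporters of other families were lower in 13 of 14 cases, and relative to the median promoter 4 were lower and 2 higher. Sfxn2, a sideroflexin, read 164, 144 and 165 in wild-type and 34, 36.3 and 25 in Cox10-/- libraries, a log2 fold change of -2.29 (SE 0.16, limma adjusted p = 3.9e-33). Sfxn5, of the same family, was -0.57 relative to the median promoter (limma adjusted p = 3.4e-06). The higher ones were Ghitm at 0.71 and Mcu, the pore of the calcium uniporter, at 0.35. All 3 outer membrane channels Vdac1, Vdac2 and Vdac3 were lower on the deposited scale, and Vdac2 and Vdac3 were higher relative to the median promoter, at 0.30 and 0.28.

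Enzymes that make or use what the carriers move fell in 13 of 14 cases on the deposited scale, with a median log2 fold change of -1.11, and relative to the median promoter 8 were lower and 4 higher. Gls2, the liver glutaminase, read 258, 247 and 240.3 in wild-type and 69.7, 50.8 and 48.5 in Cox10-/- libraries. Its log2 fold change of -2.14 (SE 0.13, limma adjusted p = 8.1e-40) was -1.27 relative to the median promoter (limma adjusted p = 3.2e-17). Got2, the mitochondrial aspartate aminotransferase of the malate-aspartate shuttle, was -0.38 relative to the median promoter (limma adjusted p = 7.4e-09). Me1, the cytosolic malic enzyme, read 168, 171 and 175 in wild-type and 169, 151 and 141 in Cox10-/- libraries, and stood 0.71 relative to the median promoter (limma adjusted p = 6.5e-10). Cpt2, which releases acyl-CoA from the acylcarnitine that Slc25a20 brings in, was 0.31 relative to the median promoter (limma adjusted p = 2e-05), whereas Slc25a20 itself was -0.26. All 13 ATP synthase subunit promoters fell, with a median log2 fold change of -0.84, and relative to the median promoter 3 were lower, among them Atp5md at -0.28 and Atp5k at -0.30, and Atp5g3 was higher at 0.19. Neither Atp5md nor Atp5k was called with libraries centred on the median region, at -0.09 (limma adjusted p = 0.305) and -0.11 (limma adjusted p = 0.406).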

How the data were processed

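H3K27ac ChIP-seq libraries from 3 wild-type and 3 Cox10-/- regenerating mouse livers were analysed; the 6 inputs have no column in the table used here. The submitters' processing notes name BWA 0.7.5, MACS, deepTools 3.5.0 and the build mm10. The deposited table of 36446 rows holds, per the file headers, a normalised read signal per region and library; 59 repeated rows were dropped. Multiplying by size factors found from the values gave whole reads for 100% of values within 0.01, 3282878 to 4187377 per library; how the authors set the factors is not stated in the labels. The deposited table also holds the authors' log2 fold changes, a score (fold change over its standard error), p-values and adjusted p-values, and a mean signal per region. The members and gene lists were chosen with earlier results of these data known.

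limma 3.58.1 (trend) in R 4.3.3 was fitted to log2(value + 1) over all 36387 regions. For changes relative to the median promoter, each library was first centred on its median over 9663 promoters, and all regions were fitted again. These promoters were the strongest region of each gene within 1 kb of a start, per the deposited annotation. Benjamini-Hochberg adjustment was over all regions on both scales, with a threshold of 0.05. Within-library ratios were tested with exact permutation tests (scipy 1.17.1). Alternatives were DESeq2 1.42.0 and edgeR 4.0.16 with recovered whole reads, TMM, pseudocounts of 0.5 and 5, filters at a mean of 10 and 50, centring on the median region, a replicate block, promoters within 3 kb, a threshold of 0.01 and leaving out each library. The fit was tested on simulated data. The chi-square of read counts divided by its degrees of freedom was 1.06 to 1.19 between libraries of a group and 10.2 to 10.6 across groups. Values in every library are given for the members with the 6 highest regions, the 6 lowest promoters, the 3 highest promoter levels per kb, up to 4 with the most regions, the ADP/ATP translocases and the pairs whose ratios did not overlap; from each related list up to 2 genes per direction by smallest adjusted p are named. Other members with values in every library were added after their values were seen. RefSeq windows and neighbouring genes come from GRCm38.p6.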

Additional observations from a re-analysis of the deposited data

How the results depend on the processing

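Depth limits weak regions: the region of Slc25a37 that rose most held 8.95 to 25.8 normalised reads per library. Scale decides most directions. After centring the libraries on their median region, 42 carrier regions were lower and 39 higher, 6 promoters were lower and 12 higher, and the median promoter log2 fold change was 0.17. With edgeR and TMM these were 43, 39, 6, 12 and 0.16. No fit relative to the median promoter was made with TMM. Under centring and TMM respectively, these promoters turned positive: Slc25a30 (0.64, 0.65), Slc25a28 (0.67, 0.67), Slc25a51 (0.19, 0.18), Slc25a3 (0.54, 0.54), Slc25a26 (0.28, 0.26), Slc25a5 (0.39, 0.40), Slc25a45 (0.55, 0.55), Slc25a11 (0.20, 0.19), Slc25a40 (0.63, 0.63), Mtch2 (0.15, 0.14), and the highest regions of Slc25a28 (0.80, 0.80) and Slc25a10 (0.77, 0.77); Slc25a44 was 0.0081 under TMM only. These follow from the general fall being removed by the scaling itself. DESeq2 with the deposited size factors called 0 regions and 0 promoters higher. Only 1 region was higher among those with a mean of at least 50, an alternative chosen after seeing the data, and 1 region and 0 promoters at an adjusted p under 0.01. Without 1 library at a time, 104 to 108 regions were lower and 1 to 5 higher, 33 to 34 promoters lower and 0 to 1 higher, 10 to 13 promoters lower and 8 to 9 higher relative to the median promoter, and the median log2 fold change was -0.95 to -0.84. Every other count recomputed stayed within 1.5 times its value in the report. The fits with a replicate block gave 107 regions lower and 6 higher, 34 promoters lower and 1 higher, 14 lower and 9 higher relative to the median promoter, and a median log2 fold change of -0.88. Deviations of same-numbered libraries had correlations of -0.00092 to 0.0074. Libraries of a group differed by little more than the sampling of reads (chi-square over its degrees of freedom 1.06 to 1.19), so these correlations cannot show whether the numbers pair the libraries. The filter at a mean of 10 removed no region.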
